A study of Rattus norvegicus with 12 samples.

Results

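Reactive astrocyte genes were followed in the pyramidal layer of hippocampal area CA1 of control and chronically epileptic rats. The group was 6 Ensembl identifiers chosen by name, of 32662 counted in each library: Gfap (ENSRNOG00000002919), Vim (ENSRNOG00000018087), Cd44 (ENSRNOG00000006094), Timp1 (ENSRNOG00000010208), Lcn2 (ENSRNOG00000013973) and Serpina3n (ENSRNOG00000010410). The list was drawn up with earlier results of these data known. All 6 identifiers had a row in the count files. The files carry no gene symbols, so the pairing of identifier and symbol is the one given with the list and was not checked against them.

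RNA was sequenced from adult male Wistar rats. The labels give them a weight of 180 to 200 g and an age of 45 to 50 days. Given the 6 to 8 weeks that followed status epilepticus, these are not read here as the age and weight at sampling. Epileptic rats had received repeated doses of kainate (5 mg/kg), an agonist of ionotropic glutamate receptors, until status epilepticus, which was ended with diazepam (4 mg/kg). They were sampled 6 to 8 weeks later. Control rats had received vehicle, saline or DMSO, and comparable care. Per the labels, seizures were noticed while animals were handled, or by electrical recording in some of them. The deep sublayer (towards the stratum oriens) and the superficial sublayer (towards the stratum radiatum) were cut apart by laser from 20 µm sections of the same brains. This gave 12 libraries from 3 control and 3 epileptic animals in 4 groups of 3, with 16135358 to 25893962 reads assigned to genes in each. Epileptic animals are called animals 1, 2 and 3 by the replicate number in their labels.

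Astrocytes answer injury, seizures and inflammation by enlarging their intermediate filament skeleton and by making secreted and surface proteins that they hold at low levels at rest. Gfap and Vim encode the filament proteins glial fibrillary acidic protein and vimentin. Cd44 is the surface receptor for hyaluronan, Timp1 an inhibitor of matrix metalloproteinases, Lcn2 a secreted lipocalin that binds bacterial siderophores, and Serpina3n a secreted serine protease inhibitor. Only Gfap is largely an astrocyte gene in adult brain. Vim, Cd44, Timp1 and Lcn2 are also made by endothelial cells, microglia or invading leukocytes. No marker list of those cell types could be run, because the identifiers could not be paired with symbols, so the part of other cells in the values below was not tested. In tissue cut as a whole, more cells of a type and more RNA per cell cannot be told apart.

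Gfap was several times higher in both sublayers of epileptic animals 2 and 3 than in any control, and was at the control level in animal 1. Levels are in CPM, the usual read count normalised to library size, here after TMM scaling of the 12 libraries. In deep CA1, the control animals 1, 2 and 3 had 114, 139 and 169 CPM of Gfap and the epileptic animals 130, 644 and 1378 CPM. In superficial CA1 the values were 82.6, 122 and 119 CPM in controls and 126, 717 and 1949 CPM in epileptic animals. Deep groups thus overlapped through animal 1. The superficial groups did not, although animal 1 lay just above the highest control (126 against 122 CPM). Against the mean of the controls of its sublayer, animal 1 had 0.920 times the Gfap level in deep and 1.17 times in superficial CA1, animal 2 had 4.58 and 6.65 times, and animal 3 had 9.79 and 18.1 times.

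Vim followed the same order of animals, but here animal 1 was also above every control. Deep libraries held 4.45, 4.13 and 5.51 CPM in controls and 9.25, 17.8 and 43.1 CPM in epileptic animals 1, 2 and 3. Superficial libraries held 2.63, 3.37 and 5.48 CPM in controls and 6.27, 23.7 and 97.1 CPM in epileptic animals. The groups overlapped in neither sublayer. In animal 3 Vim stood at 9.17 times the control mean in deep and 25.4 times in superficial CA1. In animal 1 it stood at 1.97 and 1.64 times. Against the pooled control libraries the ratio in animal 1 was 1.98 (95% counting interval 1.64 to 2.40) in deep and 1.66 (1.33 to 2.07) in superficial CA1. The superficial value of animal 1 (5.26 to 7.42 CPM) could not be told from the highest superficial control at this depth (4.46 to 6.65 CPM). These intervals, here and below, are exact binomial or Poisson intervals, cover counting error only and leave out the spread between animals.

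**Figure D1:**
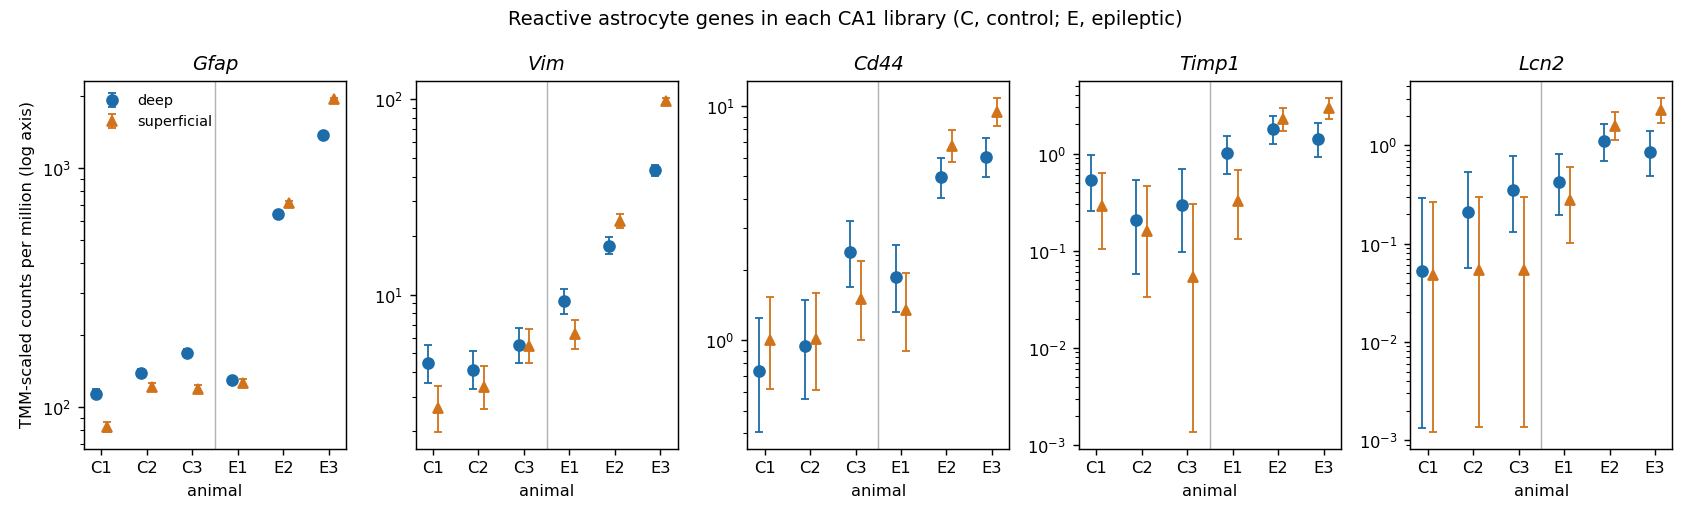
CPM after TMM scaling (log axis) of 5 genes in each of the 12 libraries, by animal (C1 to C3, control; E1 to E3, epileptic) and sublayer (circles, deep; triangles, superficial); bars are exact 95% Poisson counting intervals. The libraries of E2 and E3 lie above all control libraries of their sublayer for each gene, while E1 lies near the controls for Gfap, at 130 and 126 CPM, and Cd44. E1 is above the highest control for Vim, Timp1 and Lcn2 in both sublayers and for Gfap in superficial CA1. Of these, only Vim in deep CA1 has a counting interval clear of that of the highest control. The share of all identifiers with this order in E1 was not computed.

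The start regions of 3 members are shown to set their sequences side by side. They are those of Gfap and Vim, the filament genes, and of Lcn2, the member with the fewest control reads among the 5 that were counted. Each is the 250 bases before the start of the gene in RefSeq on build GRCr8, which is not the build of the count files, and is written 5′ to 3′ on the strand of the gene. Capitals mark matches, on either strand, to a STAT, an AP-1, a loose NF-kB, a TATA box and a CCAAT pattern, where overlapping matches run together.
Gfap, chr10:88361662-88361911, minus strand: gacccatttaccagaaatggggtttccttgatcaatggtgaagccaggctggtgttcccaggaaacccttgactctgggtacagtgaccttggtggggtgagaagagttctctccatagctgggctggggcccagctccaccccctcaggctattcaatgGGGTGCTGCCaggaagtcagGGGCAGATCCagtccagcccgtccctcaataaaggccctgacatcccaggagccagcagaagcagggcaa
Vim, chr17:81577011-81577260, plus strand: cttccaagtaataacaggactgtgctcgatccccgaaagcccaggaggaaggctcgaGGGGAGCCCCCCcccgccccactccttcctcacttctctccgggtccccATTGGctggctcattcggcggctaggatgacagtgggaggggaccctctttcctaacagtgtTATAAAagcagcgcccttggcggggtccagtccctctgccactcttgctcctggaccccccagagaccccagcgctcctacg
Lcn2, chr3:36081781-36082030, minus strand: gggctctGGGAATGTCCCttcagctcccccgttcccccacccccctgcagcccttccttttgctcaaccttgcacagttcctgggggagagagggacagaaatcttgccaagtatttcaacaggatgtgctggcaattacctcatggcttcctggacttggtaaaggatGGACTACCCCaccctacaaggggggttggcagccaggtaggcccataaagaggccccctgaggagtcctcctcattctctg

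The loose NF-kB pattern, 3 G and 2 C with any 5 bases between them, was found before all 6 members, and in 42.3% of the 33469 windows of this length in the table, so that a match is common. TATAAA and CCAAT were found before Vim alone among the 6, beginning 82 and 144 bases before its start, against 12.9% and 34.0% of all windows. The STAT pattern TTCNNNGAA was found before Serpina3n alone, as TTCCCAGAA beginning 123 bases before its start, and in 7.67% of all windows. The AP-1 pattern TGANTCA was found before 0 of the 6 and in 6.34% of all windows. A match is a run of letters and not a measured binding site, and a lack of matches holds for these 250 bases only.

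Cd44 was higher than in any control in animals 2 and 3 and within the control range in animal 1. Deep libraries had 0.741, 0.941 and 2.37 CPM in controls and 1.86, 4.96 and 6.04 CPM in epileptic animals 1, 2 and 3. Superficial libraries had 1.00, 1.02 and 1.50 CPM in controls and 1.35, 6.76 and 9.44 CPM in epileptic animals. The groups therefore overlapped in both sublayers through animal 1. Animals 2 and 3 stood at 3.67 and 4.47 times the control mean in deep and at 5.76 and 8.04 times in superficial CA1.

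Timp1 and Lcn2, the secreted members, were near the limit of detection in controls, with 1 to 10 reads in each control library. They had 6 to 62 reads in each epileptic library. Timp1 had 10, 4 and 5 reads in deep and 6, 3 and 1 in superficial control libraries, or 0.0537 to 0.529 CPM. In epileptic animals 1, 2 and 3 it had 1.00, 1.78 and 1.40 CPM in deep and 0.325, 2.24 and 2.93 CPM in superficial CA1. All 3 epileptic values lay above the control values of their sublayer, but the superficial value of animal 1 rested on 7 reads (95% counting interval 0.131 to 0.670 CPM) and could not be told from the highest control at this depth (6 reads, 0.287 CPM, 0.105 to 0.624).

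Lcn2 had 1, 4 and 6 reads in deep control libraries and 1 read in each superficial control library. Epileptic animals 1, 2 and 3 had 9, 23 and 16 reads in deep CA1 (0.429, 1.11 and 0.863 CPM). They had 6, 39 and 49 reads in superficial CA1 (0.279, 1.59 and 2.31 CPM). The values of the groups did not overlap in either sublayer. The deep value of animal 1 (95% counting interval 0.196 to 0.814 CPM) could not be told from the highest deep control at this depth (0.356 CPM, 0.131 to 0.774). The interval of its superficial value (0.102 to 0.607 CPM) also overlapped that of the highest superficial control (0.00136 to 0.299 CPM). Against the pooled superficial controls the ratio in animal 1 was 5.41 (1.16 to 33.4). Because the 3 superficial control libraries held 3 reads in all, the ratio of the pooled epileptic to the pooled control level, 27.1, had a 95% counting interval of 9.01 to 134. In deep CA1 the same ratio was 3.97 (2.03 to 8.48).

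Serpina3n was listed at 0 in all 12 libraries, as were 8959 of the 32662 identifiers (27.4%). A count of 0 allows up to 3 reads, which is 0.122 to 0.178 CPM in a single library and 0.0125 CPM over all of them. Serpina proteinase inhibitors form a family of close copies in rodents, and 25.2 to 45.6% of the alignments in a library were not unique and were left uncounted. Whether reads of Serpina3n were among those was not tested. The row gives no level of Serpina3n, and the comparisons below rest on the other 5 genes.

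With 3 animals against 3, none of the members passed the test of epileptic against control rats in either sublayer or over both. The fitted changes were large and so was their error. In deep CA1 the log2 fold change of Gfap was 2.35 with an SE of 0.77 (adjusted p = 0.283) in edgeR's quasi-likelihood test with Benjamini-Hochberg adjustment over 14261 identifiers, the test used throughout. Vim had 2.32 (SE 0.53, adjusted p = 0.173), Cd44 1.67 (SE 0.53, adjusted p = 0.254) and Timp1 1.99 (SE 0.43, adjusted p = 0.134). In superficial CA1 Gfap had 3.14 (SE 0.99, adjusted p = 0.215), Vim 3.50 (SE 1.11, adjusted p = 0.216) and Cd44 2.34 (SE 0.69, adjusted p = 0.190). Of the 6 members, 4 entered the deep test and 3 the superficial test. Timp1 in superficial and Lcn2 in both sublayers had too few reads to enter.

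These counts stand against few calls in general. Because the members were chosen with earlier results of these data known, the shares and ranks here and below are descriptions and no test of the list. The share of all identifiers called was 0% in deep CA1 and 0.0140% in superficial CA1 (2 of 14321). At an unadjusted p below 0.05 in the epileptic-higher direction lay each of the 4 members tested in deep CA1 and each of the 3 in superficial CA1, against 8.22% and 10.2% of all identifiers (13.7% and 18.9% in both directions). Timp1 entered the deep test only through its epileptic libraries, where it was high, and adds nothing to that count. By size of the fitted change, Vim and Gfap ranked 46th and 62nd from the highest of 14321 identifiers in superficial CA1. In deep CA1 they ranked 54th and 52nd of 14261. Of Gfap, Vim and Cd44, which were counted well enough in both conditions to enter each test, all 3 epileptic libraries lay above all 3 control libraries for Vim in deep CA1 and for Gfap and Vim in superficial CA1. The share of all identifiers tested with such an order was 8.82% and 10.2%. Timp1 and Lcn2 had the same order in both sublayers but are not read against these shares, since they entered no test or entered only through epileptic libraries.

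With the deep and superficial reads of an animal added together, 5 members could be tested over 6 animals and 0 passed, against 0.0325% of all identifiers (5 of 15398). Gfap changed by a fitted 2.76 on the log2 scale (SE 0.86, adjusted p = 0.221), Vim by 3.00 (SE 0.83, adjusted p = 0.196) and Cd44 by 2.04 (SE 0.61, adjusted p = 0.200). For Timp1 it was 2.68 (SE 0.56, adjusted p = 0.119), and for Lcn2 3.14 (SE 0.69, adjusted p = 0.128). Timp1 and Lcn2 passed the filter on low counts only through epileptic animals, so that they had to differ and are not read against the other identifiers. An unadjusted p below 0.05 in the epileptic-higher direction was reached by Gfap, Vim and Cd44, beside 10.3% of all identifiers (18.1% in both directions). Of these 3 genes, the epileptic animals all lay above the control animals for Vim alone, an order held by 10.7% of all identifiers.

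The tests depended on single animals and on the tool. Without animal 1, which lay closest to the controls, all 5 members passed over both sublayers (log2 fold changes 2.48 to 3.58, edgeR adjusted p = 0.0228 for Gfap and 0.0249 for each of the others). In deep CA1 4 of 5 then passed and in superficial CA1 5 of 5. Calls over all identifiers grew as well in that fit, to 1417 of 15649 over both sublayers, 552 of 14438 in deep CA1 and 1443 of 14492 in superficial CA1. Timp1 and Lcn2 passed the filter on low counts only through epileptic libraries. They had to differ and are not read against these totals. Leaving out an animal for its low value cannot serve as a test of epilepsy. Without animal 3, the log2 fold changes of Gfap in deep and superficial CA1 were 1.46 and 1.98, and those of Vim 1.53 and 2.00. Of these only Vim in deep CA1 passed (adjusted p = 0.0261), where 275 of 14398 identifiers were called. DESeq2 called Vim and Timp1 in deep CA1 (adjusted p = 0.0173 and 0.0447), all 3 members tested in superficial CA1 (0.00532 to 0.0268) and Gfap, Vim, Cd44 and Timp1 over both sublayers (0.00167 to 0.0449). The same tool called 376 of 14261, 885 of 14321 and 919 of 15398 identifiers in these comparisons. Timp1 is again not read against these totals. With the replicate number as a block in deep CA1, Cd44 passed in edgeR at a log2 fold change of 1.69 (adjusted p = 0.0309) and the other 3 did not (0.0725 to 0.413). That fit called 239 of 14261 identifiers.

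**Figure D2:**
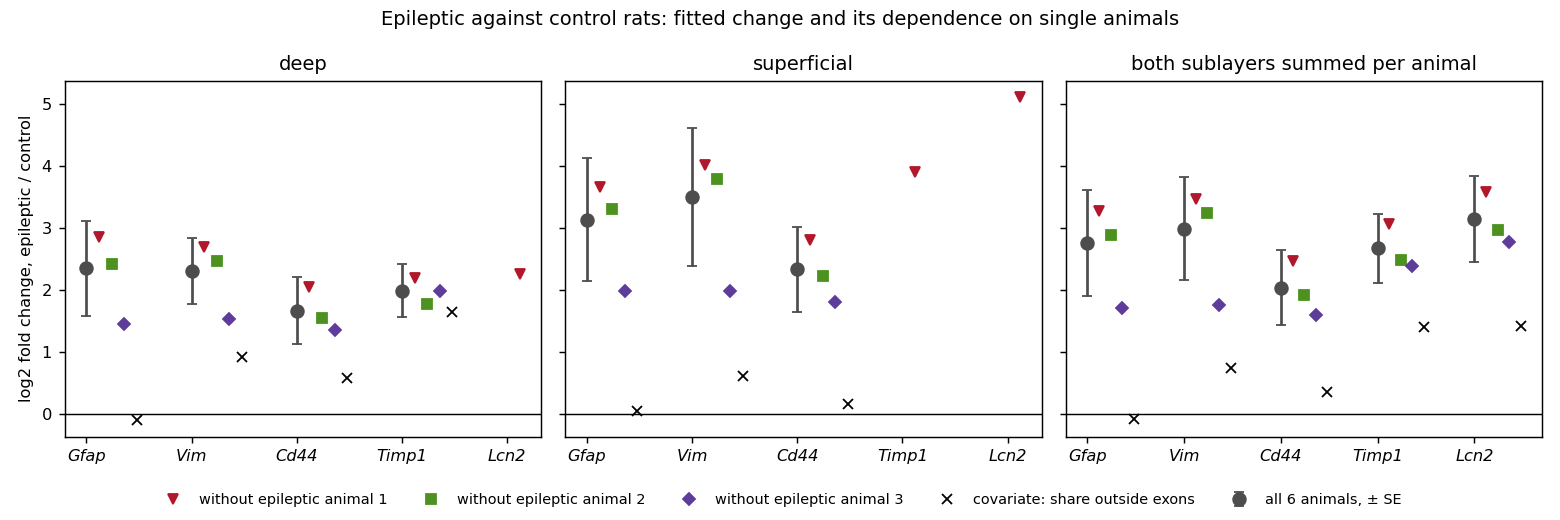
Fitted log2 fold change of epileptic over control rats in deep CA1, superficial CA1 and the summed sublayers; grey circles with bars show the fit of all 6 animals ± SE, coloured symbols the fits without 1 epileptic animal, and crosses the fit that includes the percentage of alignments outside exons. Gfap and Vim are lowest without epileptic animal 3 among the fits that leave out 1 epileptic animal, and the crosses for Gfap lie near 0; Timp1 in superficial and Lcn2 in single sublayers entered, of the fits plotted, the one without animal 1.

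Several library measures moved with these genes. Reads outside annotated exons made up 35.8 to 44.0% of alignments in control libraries and 37.7 and 43.0% in animal 1, but 25.3 and 26.7% in animal 2 and 22.3 and 25.6% in animal 3. Reads that mapped to more than 1 place were 25.2 to 30.6% of alignments in animal 1, 25.9 to 34.8% in controls and 37.9 to 45.6% in animals 2 and 3. The most abundant identifier took 8.24 to 13% of gene reads in controls, 11.0 and 16.6% in animal 1 and 18.7 to 22.8% in animals 2 and 3. TMM factors were 1.02 to 1.07 in controls, 0.998 and 1.04 in animal 1 and 0.894 to 0.959 in animals 2 and 3. With the share outside exons in the model, the log2 fold change of Gfap was −0.10 in deep CA1 and 0.05 in superficial CA1 (edgeR adjusted p = 0.939 and 0.999). That of Vim was 0.93 and 0.62 (0.330 and 0.999) and that of Cd44 0.58 and 0.17 (0.766 and 0.999). Timp1 in deep CA1 had 1.64 (adjusted p = 0.251). Over both sublayers Timp1 went from 2.68 to 1.41 and Lcn2 from 3.14 to 1.42 with the covariate (adjusted p = 0.498 and 0.503). The 4 libraries of animals 2 and 3 are at once the lowest in the share outside exons, the highest in the other library measures named bar the TMM factor, where they are lowest, and the highest in the 5 genes. These measures and the animals cannot be told apart.

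**Figure D3:**
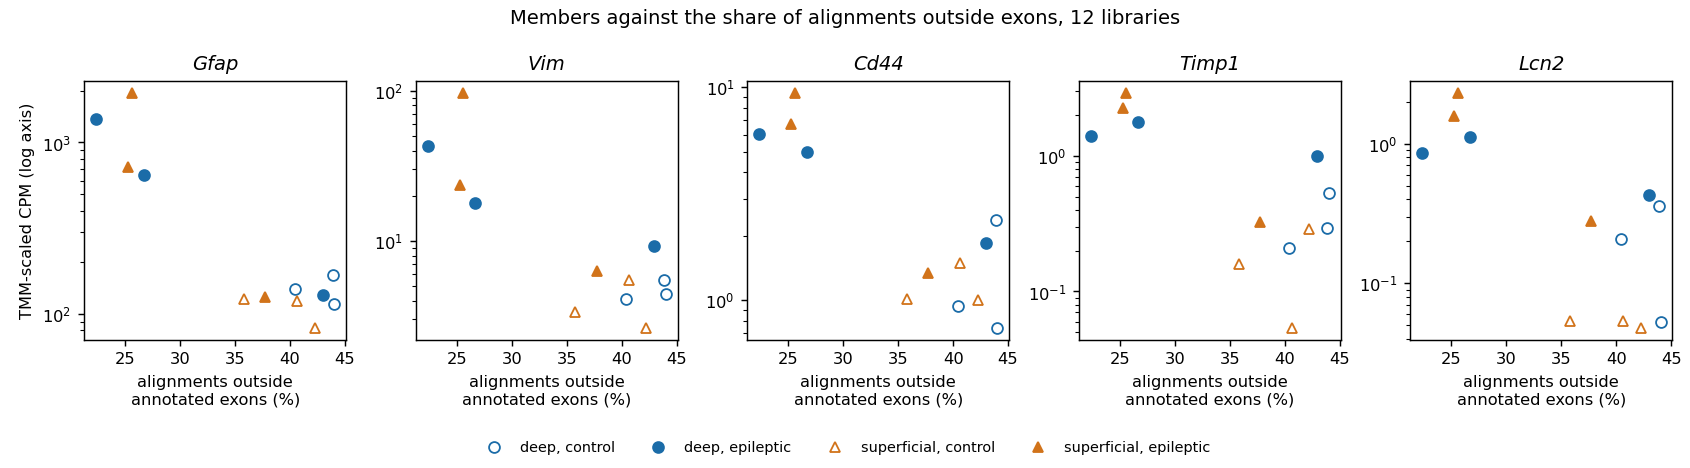
CPM (log axis) of 5 genes in the 12 libraries against the percentage of alignments outside annotated exons; circles are deep and triangles superficial libraries, open symbols control and filled symbols epileptic. The 4 libraries of animals 2 and 3, at 22.3 to 26.7%, form a cluster apart from the other 8, at 35.8 to 44.0%.

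Animals 2 and 3 differed from each other mainly in the filament genes. Animal 3 had 2.14 times the Gfap level of animal 2 in deep CA1 (95% counting interval 2.09 to 2.18) and 2.72 times in superficial CA1 (2.67 to 2.77). The ratio for Vim was 2.42 (2.14 to 2.74) in deep and 4.09 (3.73 to 4.50) in superficial CA1. For Cd44 it was 1.22 (0.924 to 1.61) and 1.40 (1.13 to 1.72). Timp1 gave 0.787 (0.458 to 1.34) and 1.31 (0.893 to 1.91) and Lcn2 0.780 (0.385 to 1.54) and 1.46 (0.936 to 2.28), so that no difference in the secreted members was detectable between these animals at this depth. Each ratio compares single libraries.

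Read against Gfap in the same library, which needs no scaling between libraries, the other genes also changed unequally. Vim had 2.77 to 4.59 reads per 100 Gfap reads in the 6 control libraries, and 2.76 to 4.98 in the 4 libraries of animals 2 and 3. In animal 1 the ratio was 7.14 in deep and 4.97 in superficial CA1, both above the controls. So was the superficial library of animal 3, at 4.98. Both superficial values lay close to the highest control, 4.59, in superficial CA1 of control animal 3. That control held 102 Vim reads and superficial CA1 of animal 1 held 135. No counting interval was computed for these ratios, so such a small excess is not read as a difference. Cd44 had 0.649 to 1.41 reads per 100 Gfap reads in controls. In animal 3 it had 0.438 in deep and 0.484 in superficial CA1, below every control library.

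The spread between animals was wide among epileptic and narrower among control rats for the filament genes. The coefficient of variation of Gfap was 19.4% in deep and 20.3% in superficial control libraries, and 87.5% and 99.9% in epileptic libraries (n = 3 each). For Vim it was 15.4% and 38.6% in controls and 75.3% and 114% in epileptic rats. Over all identifiers the median was 9.25% and 8.75% in controls and 14.6% and 13.9% in epileptic rats. In superficial epileptic libraries 98.3% of the 14791 identifiers varied less than Gfap and 99.2% less than Vim. For Cd44, Timp1 and Lcn2 the low counts in controls add counting error, and in deep CA1 their coefficients were higher in control (65.8%, 47.9% and 73.5%) than in epileptic libraries (50.6%, 27.9% and 42.9%). In superficial CA1 the order was the opposite, with 24.3%, 69.9% and 6.46% in control and 70.5%, 73.6% and 74.0% in epileptic libraries, where the 6.46% of Lcn2 came from 1 read in each library.

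In control rats Gfap was higher in the deep than in the superficial sublayer. The ratio of superficial to deep CPM was 0.724, 0.871 and 0.708 in control animals 1, 2 and 3. In the edgeR test with a term per animal its log2 fold change was −0.39 (SE 0.09, adjusted p = 0.0212). Gfap was the 1 member of the 5 tested that passed, where 8.44% of 14791 identifiers were called and 4.18% were called higher in deep CA1. The call was lost without control animal 1 (−0.35, adjusted p = 0.132) or control animal 3 (−0.33, adjusted p = 0.170). It was also lost with no block for the animal (−0.38, adjusted p = 0.981), a fit that ignores that both sublayers came from the same brain. The call held in edgeR with RLE size factors (adjusted p = 0.0173), with no filter on low counts (2.31e-09) and from control libraries alone (9.39e-05). It held in DESeq2 as well (adjusted p = 0.0371).

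Vim did not pass (log2 fold change −0.32, SE 0.49, adjusted p = 0.762), with ratios of 0.591, 0.815 and 0.993 in the 3 control animals. Cd44 lay at −0.15 (SE 0.30, adjusted p = 0.819), with ratios of 1.35, 1.08 and 0.634 and no common direction. Timp1 and Lcn2 lay at −1.01 (SE 0.71, adjusted p = 0.433) and −1.83 (SE 0.86, adjusted p = 0.222). Their superficial control libraries held 1 to 6 reads, so that a sublayer difference was not detectable at this depth.

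In epileptic rats the sublayer ratio of all 5 genes followed the animal. In animal 1 each gene was lower in superficial than in deep CA1, with ratios of 0.974 for Gfap, 0.678 for Vim, 0.725 for Cd44, 0.325 for Timp1 and 0.650 for Lcn2. In animal 2 each was higher in superficial CA1, with ratios of 1.11 for Gfap and 1.26 to 1.44 for the others. In animal 3 the ratios were higher again, at 1.41 for Gfap, 2.25 for Vim, 1.56 for Cd44, 2.09 for Timp1 and 2.68 for Lcn2. The 95% counting interval of the ratio excluded 1 for 2 of the 5 genes in animal 1, 3 in animal 2 and 5 in animal 3. No gene was thus higher in superficial CA1 in all 3 epileptic animals, an order held by 21.0% of all identifiers. At that share its lack in 5 genes is not read as a result about them. In animal 1 the interval held 1 for Gfap (0.924 to 1.03), Cd44 (0.432 to 1.20) and Lcn2 (0.190 to 2.04).

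**Figure D4:**
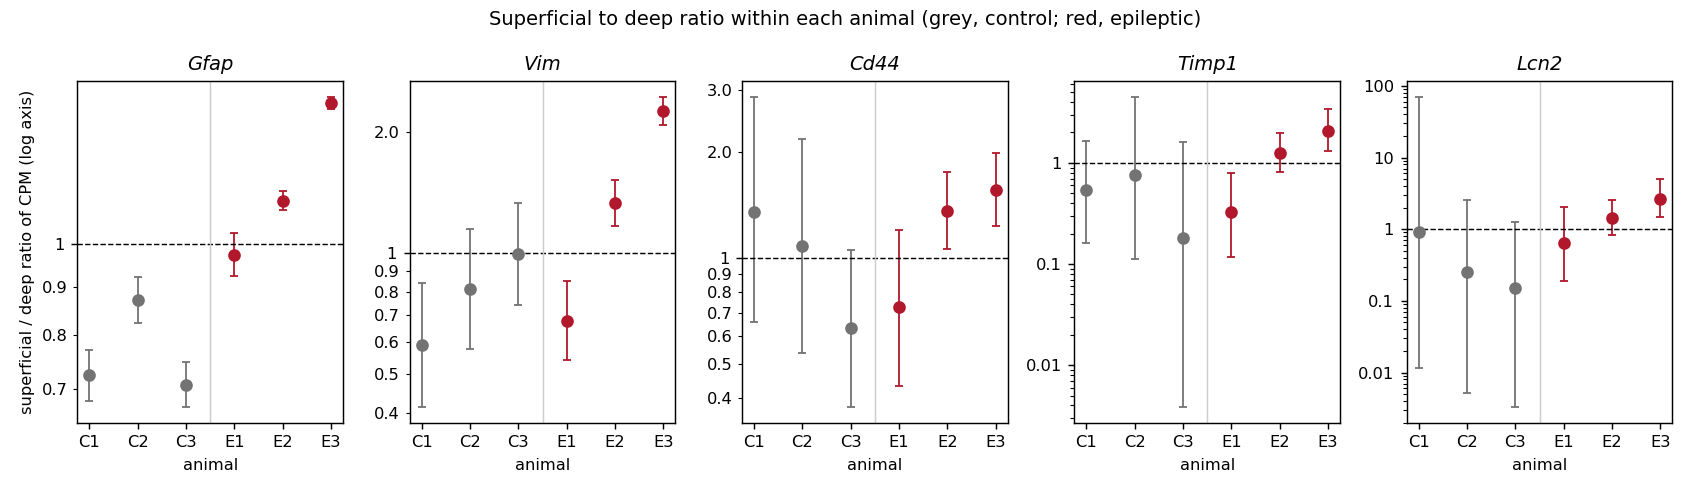
Ratio of superficial to deep CPM within each animal (log axis) for 5 genes; grey, control animals C1 to C3; red, epileptic animals E1 to E3; bars are exact 95% counting intervals and the dashed line marks equal levels. For each gene E1 lies below 1 and E2 and E3 above it, with E3 highest; Gfap lies below 1 in the 3 control animals.

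Over the 3 epileptic animals, 0 of the 5 members passed the test between sublayers, against 10% of all identifiers called. An unadjusted p below 0.05 was found for Gfap and for Lcn2, and for 25.9% of all identifiers. The log2 fold change of superficial over deep was 0.22 for Gfap (SE 0.09, adjusted p = 0.140), 0.54 for Vim (SE 0.31, adjusted p = 0.353) and 0.36 for Cd44 (SE 0.19, adjusted p = 0.254). Timp1 had 0.28 (SE 0.33, adjusted p = 0.645) and Lcn2 0.72 (SE 0.32, adjusted p = 0.175). Without animal 1, whose ratios pointed the other way, Gfap passed at 0.33 (adjusted p = 0.0218) and Vim at 0.85 (adjusted p = 0.0127), where 1039 of 14910 identifiers were called. Without animal 3, Gfap was at 0.064 (adjusted p = 0.567), Vim at 0.053 (adjusted p = 0.870) and Lcn2 at 0.25 (adjusted p = 0.70).

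Tested as an interaction of sublayer and condition, the change in the sublayer difference was called in 0 of the 5 members and 0% of all 14791 identifiers. At an unadjusted p below 0.05 lay 976 identifiers (6.60%), with Gfap among them. Lcn2 lay there too, but like Timp1 it entered this fit only through epileptic libraries and is not read against that share. DESeq2 called 2 identifiers, neither of them a member. Gfap had the 18th smallest p of all, the sublayer log2 ratio being 0.60 higher in epileptic rats (SE 0.12, edgeR adjusted p = 0.295). The corresponding values for Vim, Cd44, Timp1 and Lcn2 were 0.86 (SE 0.58), 0.51 (SE 0.36), 1.29 (SE 0.78) and 2.54 (SE 0.92), with adjusted p of 0.868, 0.861, 0.830 and 0.656. The fitted direction over the epileptic rats was towards superficial CA1 for Gfap, Vim and Cd44, as it was for the thinly counted Timp1 and Lcn2. In animal 1 alone each gene was lower in superficial than in deep CA1. Without control animal 3 the value of Cd44 was 0.090 (edgeR adjusted p = 0.9995). Gfap passed without animal 1 (0.72, adjusted p = 0.00863) and without animal 3 (0.45, adjusted p = 0.0396). These fits called 84 of 14910 and 12 of 14809 identifiers. Without animal 2 Gfap did not pass (0.63, adjusted p = 0.475). Nor did it pass without control animal 1, 2 or 3 (0.56, 0.70 and 0.54, adjusted p = 0.996, 0.647 and 0.9995). Leaving out animal 1 for its low values is no test here either.

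Over the 12 libraries the log2 CPM of the 5 genes correlated with each other at Pearson r of 0.840 to 0.965 in 10 pairs. These libraries come from 6 animals and share the split between animals 2 and 3 and the rest, so the values describe that split and carry no p. Among 9393 other identifiers with a mean log2 CPM of at least 3, the mean standardised profile of the 5 genes was followed most closely by ENSRNOG00000007650 (r = 0.982) and ENSRNOG00000030118 (r = 0.975). ENSRNOG00000007650 had a mean of 10.2 CPM in control libraries and 11.5, 22.6 and 32.8 CPM in animals 1, 2 and 3. The most opposite profiles were those of ENSRNOG00000021240 (r = −0.986), with 648 CPM in controls and 586, 505 and 472 CPM in animals 1, 2 and 3, and ENSRNOG00000005369 (r = −0.980). In total 106 identifiers had an r above 0.9.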

How the data were processed

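Raw gene counts, 1 table per library with 32662 Ensembl identifiers and 5 tallies, were used as deposited by the authors. Build Rnor_6.0 and the tools STAR 2.5.0c, HTSeq 0.6.1, SAMtools 0.1.19 and FastQC 0.11.3 are listed in the submitters' processing notes. Settings, annotation release and strand use are not given in the sources used here. Overlapping and antisense genes may therefore share reads. Gene rows held 28.6 to 35.1% of alignments. The tallies (outside exons, not unique, ambiguous) held the rest and entered neither the library sizes nor the tests. The members and lists were chosen with earlier results of these data known.

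Libraries were grouped by sublayer and condition from their labels. Libraries with 1 condition and 1 number were taken as 1 animal, since the labels name 3 control and 3 epileptic brains and the deviations of such deep and superficial libraries from their group means correlated (r = 0.316 to 0.771). Control and epileptic libraries of 1 number are different animals. In deep CA1 the correlations for numbers 1, 2 and 3 were 0.222, 0.103 and 0.251, and the report prints the blocked value there. Whether libraries of 1 number have anything in common was not tested. Replicates differed beyond sampling noise (chi-square per identifier 7.29 to 124), and none was a duplicate.

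R 4.3.3 with edgeR 4.0.16 was used: filterByExpr (minimum count 10, minimum total 15), TMM scaling, quasi-likelihood tests with robust dispersions, Benjamini-Hochberg adjustment over all identifiers tested and a threshold of 0.05. Sublayers were compared in 1 model of 12 libraries that had a coefficient per animal. For epilepsy the tests used the 6 deep libraries, the 6 superficial libraries and the summed counts of 6 animals. Its p-values measure the spread between 3 animals per condition. The SE is the absolute log2 fold change divided by the square root of F. CPM used TMM-scaled library sizes, and log2 CPM a prior count of 2. Intervals cover 95% and counting error only. Alternatives were DESeq2 1.42.0, limma 3.58.1 with the animal as a random effect, RLE size factors, no filter on low counts, a covariate, other blocks and leaving out each animal. The tests were checked on simulated counts. The text names all 6 members and, of other identifiers, the 2 with the highest and the 2 with the lowest correlation with the members' mean profile. The table of gene symbols at hand carries 0 Ensembl identifiers, so the lists of other reactive and homeostatic astrocyte genes, microglia, oligodendrocyte, endothelial, leukocyte and neuron markers were not run.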

Additional observations from a re-analysis of the deposited data

How the results depend on the processing

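The number of members called, 1 between the sublayers of controls and 0 in the other 5 comparisons, was the same with RLE size factors. With no filter on low counts it was 2 between the sublayers of epileptic rats and 2 for the difference between conditions. DESeq2 called 2 members in deep CA1, 3 in superficial CA1 and 4 over both sublayers. With the number as a replicate block 1 was called in deep CA1, and no other call of a member changed. With no replicate block for the animal, 0 were called between the sublayers of controls. Leaving out 1 animal gave 0 to 1 between the sublayers of controls, 0 to 2 in epileptic rats, 0 to 1 for the difference between conditions, 0 to 4 in deep CA1, 0 to 5 in superficial CA1 and 0 to 5 over both sublayers. Timp1 and Lcn2 are counted among the members here, although they passed the filter on low counts only through epileptic libraries.

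Among all identifiers, 1248 were called between the sublayers of controls, and 1910 with no filter, 815 by DESeq2, 2375 from control libraries alone, 5 with no replicate block and 416 to 2071 without 1 animal. In epileptic rats 1484 were called, and 811 by DESeq2, 727 from epileptic libraries alone, 5 with no replicate block and 536 to 2217 without 1 animal. For the difference between conditions the count was 0, but 178 with no filter, 2 by DESeq2 and 0 to 84 without 1 animal. Epilepsy gave 0 calls in deep CA1, but 8 with RLE size factors, 103 with no filter, 376 by DESeq2, 239 with the replicate block, 99 with the covariate, 47 with limma's random effect for the animal and 0 to 552 without 1 animal. In superficial CA1 the 2 calls became 130 with no filter, 885 by DESeq2, 25 with the replicate block, 5 with the covariate, 291 with the random effect and 0 to 1443 without 1 animal. Over both sublayers the 5 calls became 93 with no filter, 919 by DESeq2, 19 with the replicate block, 21 with the covariate and 0 to 1417 without 1 animal. The cause of these shifts was not tested.

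The direction of a member turned in 4 fits, none of which passed the threshold. With the covariate the log2 fold change of Gfap was −0.097 in deep CA1 and −0.079 over both sublayers. Without 1 animal, Cd44 between control sublayers ranged from −0.36 to 0.27 (without control animals 1 and 3), and Timp1 between epileptic sublayers from −0.18 to 0.68 (without epileptic animals 3 and 1). Control and epileptic libraries of 1 number correlated at 0.225, 0.00539 and 0.176 in superficial CA1 and at 0.291, 0.0840 and 0.264 over both sublayers. The latter are similar to those in deep CA1, and whether libraries of 1 number have anything in common was not tested. With the number as a block, 0 members passed in edgeR in superficial CA1 or over both sublayers. The lowest adjusted p was 0.0522, for Lcn2 over both sublayers. Depth limits Timp1 and Lcn2, with 1 to 10 reads in a control library.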
